A study of Mus musculus with 6 samples.

Results

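Cytosolic ribosomal protein genes were examined in RNA sequencing libraries of mouse dental epithelial cells at postnatal day 0. A gene was included if it was listed as protein coding and its symbol started with Rpl, Rps or Rplp followed by a digit, or was Rpsa. S6 kinase genes, Rps19bp1 and symbols holding -ps were left out. The rule gave 88 of 24959 genes in the table. By symbol, 47 were placed in the large subunit, 33 in the small subunit, and 8 were paralogs with symbols ending in l or l1. The groups were 3 Pkm cKO libraries (genotype label PKM knockout) and 3 control libraries (genotype label WT). Pkm encodes pyruvate kinase M, the enzyme of the last step of glycolysis. The sources used here do not name the Cre driver, the deleted exons or the strain, nor do they say whether tissue was pooled over animals. The labels call the samples biological replicates, so each p-value reflects how much these 6 libraries vary.

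The ribosome is built from a small subunit, which reads the messenger RNA, and a large subunit, which joins amino acids into protein. Each subunit holds ribosomal RNA and a set of ribosomal proteins that are made in near-equal numbers and assembled in the nucleolus. Vertebrate ribosomal protein messages typically begin with a C followed by a run of pyrimidines, the 5 prime terminal oligopyrimidine (TOP) motif, through which the growth-regulating kinase complex mTORC1 and the binding protein Larp1 control their translation. Ameloblasts of the dental epithelium secrete large amounts of enamel matrix protein.

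The start of such messages was read from RefSeq sequences of the mouse build GRCm38.p6, which held an entry for 35 large subunit genes, 25 small subunit genes and 7 paralogs. The windows below are 30 bases long and span the annotated transcription start, which is base 21 of each. They were picked to show what the motif looks like in genes whose values follow, and in 4 paralogs, of which Rpl32l has it at the annotated start, Rps27l and Rpl22l1 have it within 3 bases of the start and Rpl36al has it in neither place. Capitals mark a C at the start together with the pyrimidines after it, where that run was at least 5 bases long. Rpl14 and Rpl28 were higher in every Pkm cKO library than in every control, and Rps6 is the target of S6 kinase. Rpl38 had the lowest fold change of the subunit genes, and Rps27 is the parent of Rps27l.
Rpl14 (chr9:120571497-120571526, plus strand): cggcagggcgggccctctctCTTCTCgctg
Rpl28 (chr7:4792945-4792974, plus strand): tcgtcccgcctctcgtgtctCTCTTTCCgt
Rpl38 (chr11:114668560-114668589, plus strand): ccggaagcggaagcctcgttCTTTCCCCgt
Rps6 (chr4:86857358-86857387, minus strand): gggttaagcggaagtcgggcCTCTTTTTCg
Rps27 (chr3:90213639-90213668, minus strand): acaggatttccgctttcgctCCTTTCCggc
Rpl32l (chr10:20208419-20208448, plus strand): taataaaataaaatgaccagCTTCTTCCTT
Rps27l (chr9:66946066-66946095, plus strand): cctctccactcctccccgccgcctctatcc
Rpl22l1 (chr3:28805488-28805517, plus strand): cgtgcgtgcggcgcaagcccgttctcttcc
Rpl36al (chr12:69184058-69184087, minus strand): gttcgcattcccgtcgctcaggttcagttc

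A C followed by at least 4 pyrimidines (C or T), searched on the gene's own strand, lay exactly at an annotated start in 7 of 35 large subunit genes (20.0%), 7 of 25 small subunit genes (28.0%) and 1 of 7 paralogs (14.3%). It did so in 394 of 12443 tested genes with an entry (3.17%). Allowing the C to lie up to 3 bases from the start gave 40.0% of large subunit genes, 44.0% of small subunit genes and 42.9% of paralogs, against 15.1% of all tested genes. Most members thus lacked the motif at the annotated base, which depends on how exactly the start was annotated. The subunit genes with the tract at the start had a median log2 fold change, Pkm cKO minus control, of 0.17 (14 genes), and those without it 0.19 (45 genes).

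The targeted gene followed its labels. Pkm had 309, 395 and 350 CPM (counts scaled to library size) in the Pkm cKO libraries, against 1280, 1184 and 1048 CPM in controls (log2 fold change -1.74, SE 0.16, adjusted p = 0.0109 by edgeR's quasi-likelihood test). Total counts were 30588350 to 39085792 in Pkm cKO libraries and 38130829 to 39415700 in controls. The 88 members took 7.87%, 8.0% and 7.70% of all counts in the Pkm cKO libraries, against 5.61%, 6.25% and 7.70% in controls. All 7 dental epithelium markers were detected, and their summed level was 8344 to 9101 CPM in Pkm cKO libraries and 11092 to 13269 CPM in controls. The 10 dental mesenchyme and fibroblast markers summed to 18451 to 40274 CPM in Pkm cKO libraries and 19864 to 31481 CPM in controls, so both groups held mesenchymal transcripts. That sum is mostly Col1a1 and Col1a2, whose log2 fold changes were -0.09 and -0.14, and the other markers are given with the marker lists at the end. In such bulk samples, fewer cells of a type and less RNA per cell cannot be told apart.

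Ribosomal protein messages were slightly more abundant on average in Pkm cKO libraries, in both subunits, and no single member passed the test. Of the 79 subunit genes tested, 76 had a log2 fold change above 0 (96.2%), against 50.8% of all 15930 tested genes. These genes share the same 6 libraries and are not independent observations, and control replicate 1 was the lowest library for 76 of the 79. The median log2 fold change was 0.19 for the large subunit (range -0.05 to 0.36) and 0.18 for the small subunit (0.01 to 0.36), and 0.0068 for all tested genes. The members lay close together: the middle 50% of them had log2 fold changes of 0.11 to 0.24, against -0.25 to 0.32 for all tested genes. At an adjusted p under 0.05, edgeR called 0 of the 86 tested members, against 0.552% of all tested genes (0.345% higher and 0.207% lower). DESeq2 and limma-voom also called 0 members. Over all genes, DESeq2 called 688 higher and 430 lower, and limma-voom called 0 higher and 2 lower. An unadjusted p under 0.05 was reached by 2 subunit members, Rpl14 and Rps4x, both higher, which is 2.53% of 79 against 9.57% of all tested genes that were higher and 7.90% that were lower.

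**Figure D1:**
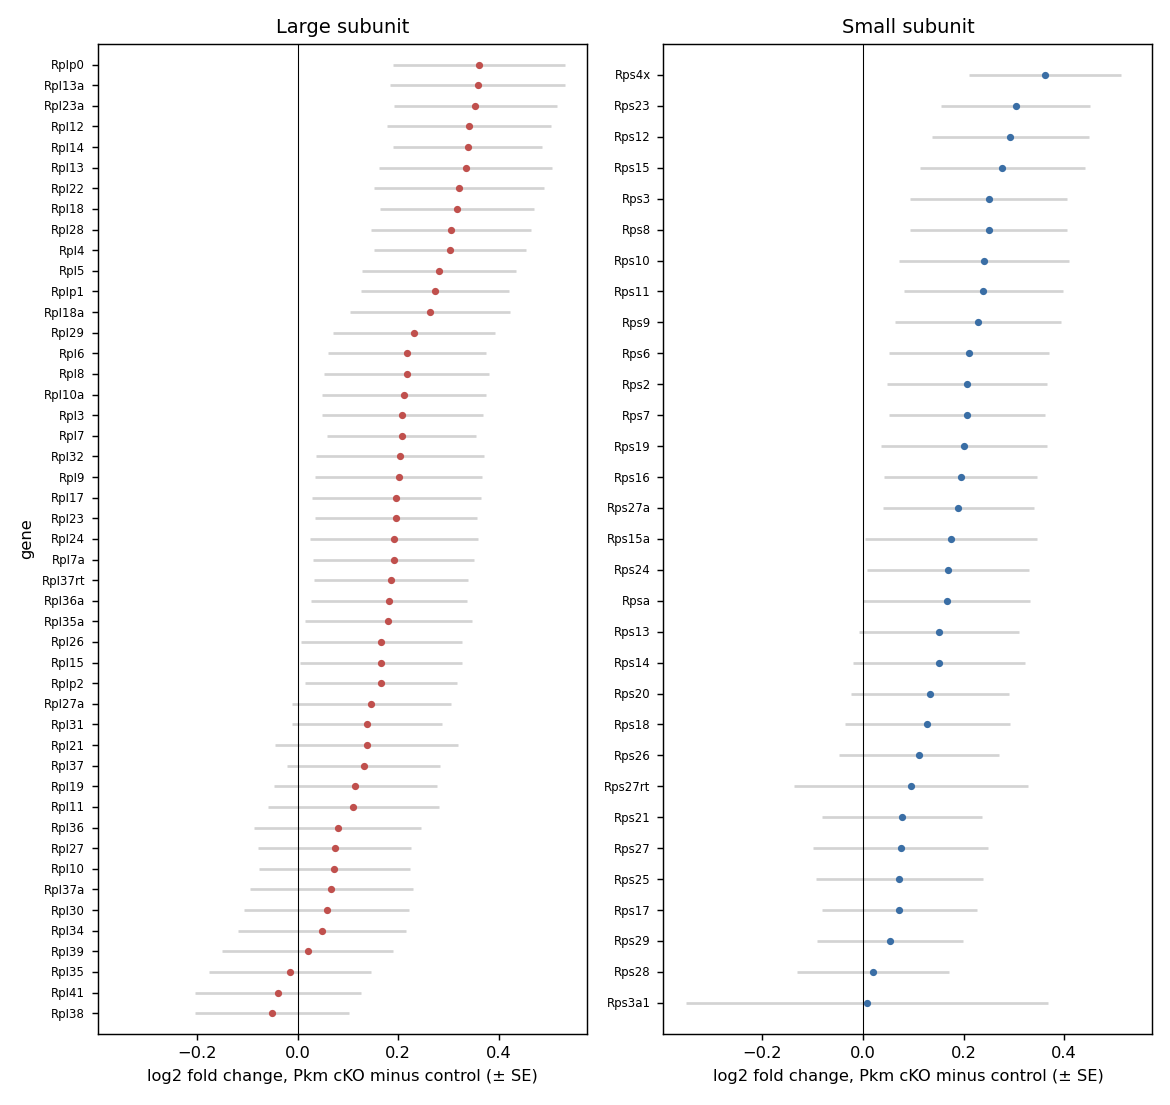
Log2 fold change (Pkm cKO minus control) of 78 tested subunit genes with its SE, from edgeR over 3 libraries a group. Of these points 75 lie right of 0, between 0.01 and 0.36; Rpl35, Rpl41 and Rpl38 lie left of 0 and were above 0 with no scaling factor, Rpl35 and Rpl41 also with upper-quartile scaling.

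The summed level shows where the spread lay. The large subunit genes summed to 45954, 46829 and 43815 CPM in Pkm cKO libraries, against 34326, 36986 and 46160 CPM in controls (mean 45533 ± 1551 against 39157 ± 6208, SD, n = 3 each). The small subunit genes summed to 31300, 31056 and 30431 CPM in Pkm cKO libraries, against 23463, 25452 and 31984 CPM in controls (mean 30929 ± 448 against 26967 ± 4458, SD, n = 3 each). For the small subunit, control replicate 3 was above every Pkm cKO library, while control replicates 1 and 2 were below all of them. The ratio of the Pkm cKO mean to the control mean was 1.16 for the large subunit and 1.15 for the small subunit, and in both subunits the groups overlapped.

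Control replicate 1 had the lowest value of the 6 libraries for 76 of the 79 genes, and control replicate 3 had the highest for 40 of them. The SD over the mean was larger among controls than among Pkm cKO libraries for 78 of the 79 genes, against 27.8% of all tested genes. Its median over the members was 6.59% in Pkm cKO libraries and 16.1% in controls. The difference between groups therefore rested on which controls were included. Without control replicate 3 the median log2 fold change of the subunit genes was 0.32, and 69 of them (87.3%) were higher in every Pkm cKO library than in both controls left, against 18.3% of all genes tested in that setting. Without control replicate 1 the median was 0.09 and the count above 0 fell to 62. In both cases edgeR called 0 genes of any kind, so its 0 called members say nothing particular about the members. Without control replicate 3, 31 of the 88 members, paralogs included, had an unadjusted p under 0.05 by edgeR, all higher. Of all genes tested in that setting, 8.17% were higher at that p.

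**Figure D2:**
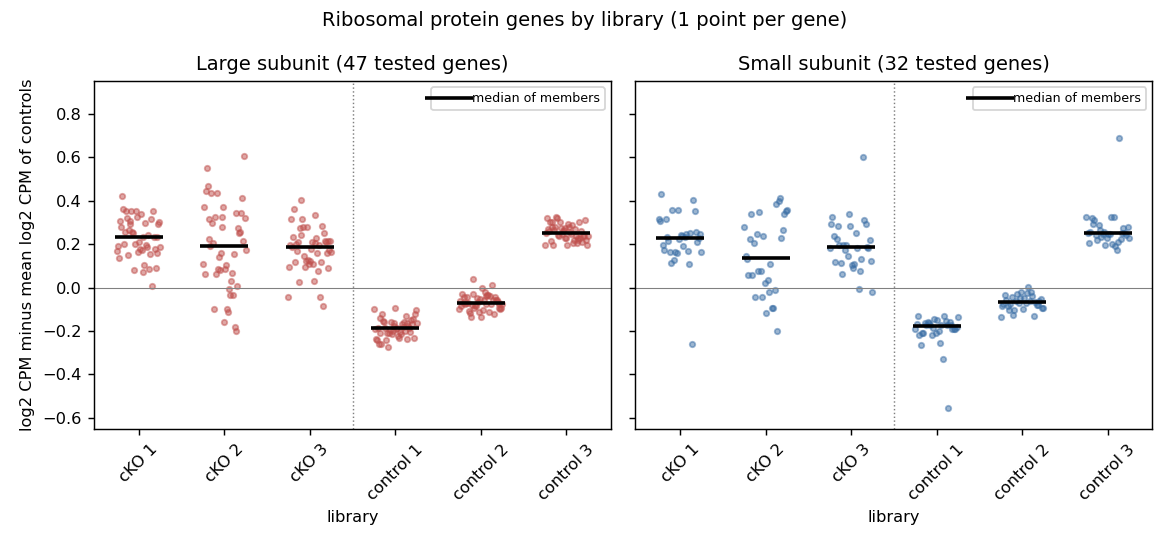
Level of each tested subunit gene in each library, as log2 CPM minus the mean log2 CPM of the 3 controls, with 1 point a gene and a bar at the median of members. The bars of the 3 Pkm cKO libraries and of control replicate 3 lie above 0, and those of control replicates 1 and 2 lie below 0.

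The balance of the subunits differed little between libraries. The ratio of the large to the small subunit sum was 1.47, 1.51 and 1.44 in Pkm cKO libraries, against 1.46, 1.45 and 1.44 in controls (mean 1.47 ± 0.03 against 1.45 ± 0.01, SD, n = 3 each). The values overlapped, and the difference between means was smaller than the SD of the Pkm cKO libraries.

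**Figure D3:**
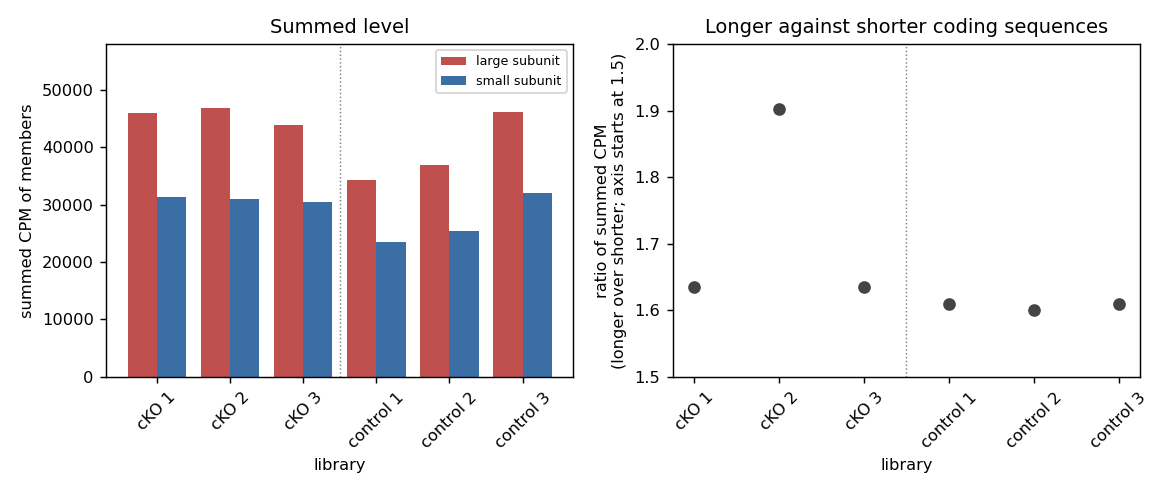
Left, summed CPM of the 47 large and 33 small subunit genes in each library, where control replicate 3 is close to the Pkm cKO libraries and control replicates 1 and 2 are lower. Right, summed CPM of members with longer coding sequences over that of members with shorter ones, which is 1.90 in Pkm cKO replicate 2 and 1.60 to 1.64 in the other 5 libraries.

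In the large subunit, 7 of 47 genes were higher in every Pkm cKO library than in every control (14.9%), against 11.2% of all tested genes, and 0 were lower in every one, against 12.2%. Rpl14 had 857, 829 and 856 CPM in Pkm cKO libraries, against 606, 631 and 774 CPM in controls (log2 fold change 0.34, SE 0.15, adjusted p = 0.278 by edgeR). Its groups did not overlap. Rpl23a, which lines the mouth of the tunnel by which new protein leaves, had 1009, 1071 and 984 CPM in Pkm cKO libraries, against 655, 812 and 932 CPM in controls (log2 fold change 0.35, SE 0.16, adjusted p = 0.295 by edgeR). Its groups also stood apart, by a narrow gap to control replicate 3. The others whose groups did not overlap were Rpl4, Rpl5, Rpl12, Rplp1 and Rpl28, with log2 fold changes of 0.27 to 0.34. Rpl28 is outside the rule for named genes and was chosen after its values were seen.

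The acidic stalk, made of Rplp0, Rplp1 and Rplp2, draws elongation factors to the ribosome. Rplp0, its base, had the highest CPM of the large subunit genes, at 3682, 4569 and 3388 CPM in Pkm cKO libraries and 2759, 2810 and 3501 CPM in controls (log2 fold change 0.36, SE 0.17, adjusted p = 0.313 by edgeR). Pkm cKO replicate 2 was the highest library and the groups overlapped through replicates 3. Rplp1 had 1707, 1730 and 1606 CPM in Pkm cKO libraries, against 1288, 1298 and 1586 CPM in controls, and did not overlap. Rplp2 had 567, 562 and 558 CPM in Pkm cKO libraries, against 445, 473 and 586 CPM in controls, so control replicate 3 was the highest.

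Rpl5 and Rpl11 bind the 5S ribosomal RNA and, when free, the p53 regulator Mdm2. Rpl5 had 1403, 1327 and 1306 CPM in Pkm cKO libraries, against 967, 1067 and 1285 CPM in controls (log2 fold change 0.28, SE 0.15, adjusted p = 0.375 by edgeR). Rpl11 had 888, 844 and 925 CPM in Pkm cKO libraries, against 686, 764 and 1011 CPM in controls (log2 fold change 0.11, SE 0.17). The groups of Rpl5 did not overlap and those of Rpl11 did, whose log2 fold change was -0.0080 without control replicate 1. Rpl10, which joins the subunit late in its assembly, Rpl10a of the L1 stalk, and Rpl24, which forms a bridge between the subunits, had log2 fold changes of 0.07, 0.21 and 0.19, with overlapping groups.

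The 3 large subunit genes with log2 fold changes below 0 were Rpl38 (-0.05), Rpl41 (-0.04) and Rpl35 (-0.02), and each was above 0 with no scaling factor, Rpl35 and Rpl41 also with upper-quartile scaling. Without control replicate 3 they were 0.06, 0.12 and 0.12. Rpl38, which mouse genetics ties to the translation of Hox messages, had 288, 239 and 264 CPM in Pkm cKO libraries, against 249, 257 and 314 CPM in controls. Rpl41, the shortest of the proteins, had 1536, 1533 and 1442 CPM in Pkm cKO libraries, against 1349, 1402 and 1883 CPM in controls. In all 3, control replicate 3 was the highest library.

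In the small subunit, 3 of 32 tested genes were higher in every Pkm cKO library than in every control (9.38%), against 11.2% of all tested genes. All 32 had a log2 fold change above 0, against 50.8% of all tested genes. Rps4x, the X-linked form of a protein of the subunit body, had 1728, 1721 and 1623 CPM in Pkm cKO libraries, against 1172, 1249 and 1524 CPM in controls (log2 fold change 0.36, SE 0.15, adjusted p = 0.257 by edgeR). This was the lowest adjusted p of any member. Rps23, a protein of the decoding centre, had 1209, 1115 and 1195 CPM in Pkm cKO libraries, against 855, 914 and 1084 CPM in controls (log2 fold change 0.30, SE 0.15, adjusted p = 0.323 by edgeR). In both genes, control replicate 3 lay under the lowest Pkm cKO library.

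Among small subunit genes with well known roles, Rps6 had 991, 974 and 947 CPM in Pkm cKO libraries, against 728, 786 and 1004 CPM in controls (log2 fold change 0.21, SE 0.16). Rps19, the gene most often mutated in human Diamond-Blackfan anemia, had 1166, 961 and 1042 CPM in Pkm cKO libraries, against 815, 848 and 1094 CPM in controls (log2 fold change 0.20, SE 0.16). The groups of both overlapped through control replicate 3. Rps3 at the message entry site, Rps10, Rps27a, which is made as a fusion with ubiquitin, Rpsa, also known as a laminin receptor, and Rps25 had log2 fold changes of 0.25, 0.24, 0.19, 0.17 and 0.07, each with overlapping groups. That of Rps25 was -0.016 without Pkm cKO replicate 1 and -0.0058 without control replicate 1.

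Rps3a1, chosen after its values were seen, differed more between libraries of a group than between groups. It had 543, 565 and 984 CPM in Pkm cKO libraries, against 442, 593 and 1046 CPM in controls (log2 fold change 0.01, SE 0.36). Replicate 3 of each group was far above the other two, and the groups overlapped.

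Per kilobase of transcript, the levels covered a wide range although the proteins are needed in near-equal numbers. In Pkm cKO libraries the middle 50% of the members lay between 826 and 1642 CPM per kilobase, against 731 and 1398 CPM per kilobase in controls. The highest 4 in both groups were Rpl41, Rplp1, Rplp0 and Rps14. Rpl41 had 3441 CPM per kilobase in Pkm cKO libraries and 3535 in controls. Rplp1 had 3369 CPM per kilobase in Pkm cKO libraries and 2787 in controls. Apart from the retrogenes, Rpl21 and Rps20 were the lowest. Rpl21 had 220 CPM per kilobase in Pkm cKO libraries and 200 in controls, and 81 pseudogenes shared its windows. Rps20 had 150 CPM per kilobase in Pkm cKO libraries and 137 in controls, and the chosen Rps20 transcript is 3706 bases long for a coding sequence of 360 bases.

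Ribosomal protein genes have many processed copies, which share sequence with their messages. For the 79 subunit genes with a transcript, the median share of 50-base windows also found in another annotated transcript was 62.2%, and for 53 of them the share was over 50%. The median number of pseudogenes sharing a window was 9, and the highest was 121. The sources used here do not say how reads that match several places were counted, and the levels of such members are therefore uncertain. The 7 tested members with at most 25% of windows shared, among them Rps3 with 2.96%, were all above 0 on the log2 fold change scale, and their median was 0.25. Across 78 members the correlation of the log2 fold change with the share was -0.12 (Pearson).

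The fold change varied with the length of the coding sequence. Across the 78 tested members with a transcript, the log2 fold change and the log2 coding length had a Pearson correlation of 0.59 (Spearman 0.58), against 0.02 over 13868 tested genes. These genes share the same 6 libraries and are not independent replicates. The 39 members with a coding length under 457.5 bases had a median log2 fold change of 0.14, and the 39 longer ones 0.22. In the same libraries, 927 tested genes with a coding length under that limit had a median of -0.07.

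The relation lay largely in 1 library. The summed CPM of the longer members over that of the shorter ones was 1.64, 1.90 and 1.64 in Pkm cKO libraries, against 1.61, 1.60 and 1.61 in controls. Set against the controls, the shorter members of Pkm cKO replicate 2 had a median log2 difference of 0.06 and the longer ones 0.30. In replicate 1 these medians were 0.20 and 0.25, and in replicate 3 they were 0.16 and 0.19. Without Pkm cKO replicate 2 the Pearson correlation was 0.32 and the Spearman correlation 0.19, while the median log2 fold change of the subunit genes was 0.20.

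**Figure D4:**
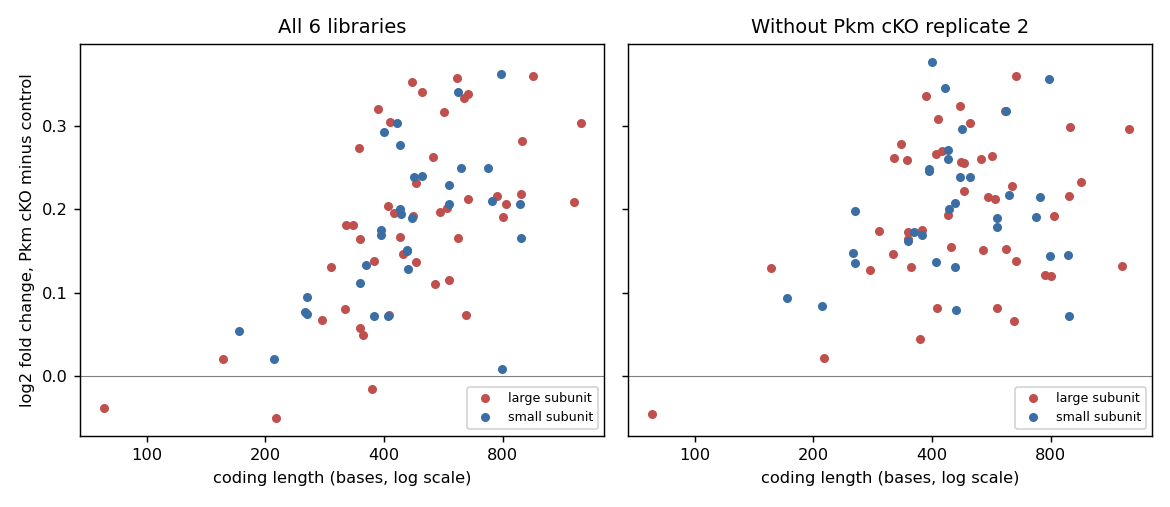
Log2 fold change (Pkm cKO minus control) of 78 subunit genes against coding length on a log axis, with all 6 libraries (left) and without Pkm cKO replicate 2 (right). Fold changes are lower at short coding lengths on the left (Pearson 0.59; median 0.14 for the shorter 39 genes and 0.22 for the longer 39), and the relation is weaker on the right (Pearson 0.32).

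The paralogs behaved less uniformly than the subunit genes. They are extra copies with restricted or variable expression, and several can replace the parent protein in the ribosome. Of the 7 tested, 4 had a log2 fold change above 0 and 3 below, with a median of 0.03. Together the 8 summed to 464, 428 and 454 CPM in Pkm cKO libraries, against 436, 430 and 514 CPM in controls, so the groups overlapped. Rpl3l, which replaces Rpl3 in striated muscle, had 1 to 5 reads in Pkm cKO libraries and 0 to 5 in controls. It was not tested. The retrogene Rps23rg1, placed with the small subunit by its symbol, was likewise not tested. It had 1 to 12 reads in Pkm cKO libraries and 1 to 7 in controls. Rpl32l, and Rpl39l, which replaces Rpl39 in the testis, were tested but had at most 45 and 91 reads in a library.

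Relative to its parent, each of 3 paralogs was lower in every Pkm cKO library than in every control. Rpl22l1 had 40.8, 36.1 and 40.6 reads per 100 reads of Rpl22 in Pkm cKO libraries, against 49.5, 47.2 and 47.1 in controls. The mean log2 ratio differed by -0.29 (exact permutation test, two-sided p = 0.1, and 0.267 when adjusted over 8 pairs). Rpl36al had 31.7, 32.4 and 30.5 reads per 100 reads of Rpl36a in Pkm cKO libraries, against 41.8, 35.9 and 35.6 in controls, a log2 difference of -0.26. Rps27l, a p53 target, had 11.4, 13.3 and 13.3 reads per 100 reads of Rps27 in Pkm cKO libraries, against 17.1, 15.7 and 14.98 in controls, a log2 difference of -0.33. For each of these p was 0.1 in the exact permutation test (adjusted 0.267), the smallest that 3 against 3 libraries can give, so the design cannot reach 0.05. These ratios do not depend on scaling.

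No paralog passed the test for its own level. Rpl22l1 had 161, 145 and 172 CPM in Pkm cKO libraries, against 135, 144 and 189 CPM in controls (log2 fold change 0.03, SE 0.17), and its sign changed without Pkm cKO replicate 3 or control replicate 1 or 2. Rps27l had 53.6, 54.2 and 59.3 CPM in Pkm cKO libraries, against 59.2, 61.9 and 77.6 CPM in controls (log2 fold change -0.25, SE 0.16, adjusted p = 0.449 by edgeR), and Rpl36al had a log2 fold change of -0.07 (SE 0.14). The parents Rpl22, Rpl36a and Rps27 had log2 fold changes of 0.32, 0.18 and 0.07, the last being -0.050 without control replicate 1. The coding sequences of Rpl36al and Rpl36a are identical at 87.9% of aligned bases, those of Rps27l and Rps27 at 76.1% and those of Rpl22l1 and Rpl22 at 73.3%. Rpl7l1 had 5.62, 5.84 and 4.29 reads per 100 reads of Rpl7 in Pkm cKO libraries, against 8.49, 6.28 and 4.83 in controls (log2 difference -0.29, exact permutation p = 0.4), and Rpl6l stayed between 3.85 and 4.88 reads per 100 reads of Rpl6 in Pkm cKO libraries, against 4.31 and 4.86 in controls.

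**Figure D5:**
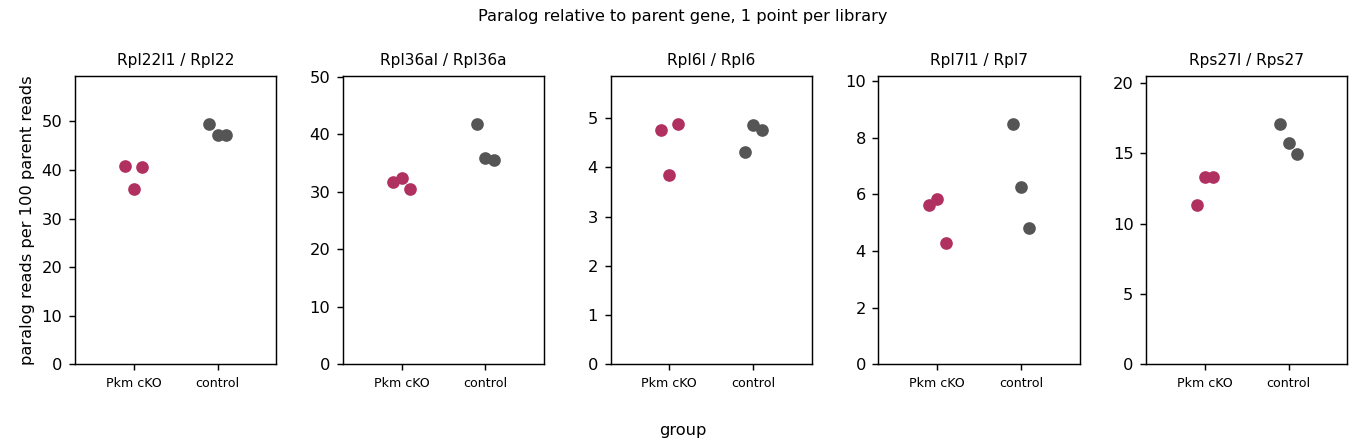
Reads of a paralog per 100 reads of its parent gene, 1 point a library, for the 5 pairs whose paralog had at least 1057 reads in every library. The 3 Pkm cKO points lie below the 3 control points for Rpl22l1, Rpl36al and Rps27l, and overlap them for Rpl6l and Rpl7l1.

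Other lists of the translation machinery are set beside the members here. In each of them edgeR called 0 genes, against 0.552% of all tested genes. DESeq2 called 1 of 19 elongation factors and other TOP messages and 1 of 78 mitochondrial ribosomal proteins. Of all 15930 tested genes, DESeq2 called 688 higher and 430 lower. The ribosomal proteins Fau and Rack1, whose symbols are outside the naming rule, had log2 fold changes of 0.12 and 0.32. Of 19 elongation factors and other TOP messages, 18 were above 0, with a median log2 fold change of 0.26, 4 higher in every Pkm cKO library and 3 with an unadjusted p under 0.05. These are 21.1% and 15.8% of the list, against 11.2% and 9.57% of all tested genes. Eef1b2, an exchange factor for elongation factor 1, had 714, 686 and 665 CPM in Pkm cKO libraries, against 451, 512 and 601 CPM in controls (log2 fold change 0.40, SE 0.15, adjusted p = 0.219 by edgeR). The snoRNA host transcript Snhg8 had 48.7, 36.9 and 45.5 CPM in Pkm cKO libraries, against 21.8, 24.1 and 31.01 CPM in controls (log2 fold change 0.77, SE 0.20, adjusted p = 0.0997 by edgeR). Both stood apart from every control.

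The medians of the remaining lists lay nearer to that of all tested genes. The counts of unadjusted p under 0.05 given for them stand beside 9.57% higher and 7.90% lower among all tested genes. Of 37 initiation factors, 22 were above 0 and 15 below, with a median log2 fold change of 0.05 and an unadjusted p under 0.05 for 1 higher and 1 lower (2.70% each). Of 62 nucleolar ribosome production genes, 46 were above 0, with a median of 0.09, and an unadjusted p under 0.05 was reached by 5 higher (8.06%) and 1 lower (1.61%). Nob1, the nuclease that completes 18S ribosomal RNA, and the RNA methyltransferase Nop2 had log2 fold changes of 0.45 and 0.48, with adjusted p = 0.201 and 0.231 by edgeR. Of 15 genes of RNA polymerase I and its factors, 8 were above 0, with a median of 0.03 and 1 unadjusted p under 0.05, higher (6.67%). Of 25 Myc and mTORC1 regulators, 15 were above 0, with a median of 0.05 and 2 unadjusted p under 0.05, both higher (8.0%). Myc, which drives ribosome production, had 48.2, 63.1 and 39.4 CPM in Pkm cKO libraries, against 38.6, 36.5 and 32.8 CPM in controls (log2 fold change 0.48, SE 0.20, adjusted p = 0.249 by edgeR), and its groups did not overlap. It was the only 1 of the 25 regulators higher in every Pkm cKO library than in every control (4.0%, against 11.2% of all tested genes). In the same list, 4 were lower in every Pkm cKO library (16.0%, against 12.2%). The median of the polymerase list was below 0 without Pkm cKO replicate 2 or any 1 of the controls, and those of the initiation factor list and the Myc and mTORC1 list without Pkm cKO replicate 2.

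Mitochondrial ribosomal proteins, which serve the separate ribosome of mitochondria, were measured in the same libraries. Of 78 genes, 34 were above 0 and 44 below, with a median log2 fold change of -0.04, and 3 were higher and 9 lower in every Pkm cKO library than in every control. These are 3.85% and 11.5% of the list, against 11.2% higher and 12.2% lower among all tested genes. An unadjusted p under 0.05 was reached by 3, all lower, which is 3.85% against 7.90% of all tested genes. Mrps33 had 25.95, 25.1 and 21.6 CPM in Pkm cKO libraries, against 33.8, 38.1 and 38.0 CPM in controls (log2 fold change -0.60, SE 0.17, adjusted p = 0.121 by edgeR). Without control replicate 3 the median was 0.048. The difference between the mitochondrial and cytosolic lists was not tested.

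Marker lists differed between the same libraries. Their counts stand beside all tested genes, of which 50.8% had a log2 fold change above 0. Of those tested genes, 11.2% were higher and 12.2% lower in every Pkm cKO library than in every control. An unadjusted p under 0.05 by edgeR was reached by 9.57% that were higher, and 0.207% were called lower. All 7 ameloblast and enamel markers had log2 fold changes below 0, with sums of 5549, 718 and 356 CPM in Pkm cKO libraries, against 25217, 22032 and 10697 CPM in controls. Of the 10 mesenchyme and fibroblast markers, 8 were above 0 and 7 were higher in every Pkm cKO library, with a median log2 fold change of 0.71, and 7 had an unadjusted p under 0.05. Of the 7 dental epithelium markers, 5 were below 0 and 4 were lower in every Pkm cKO library. Of the 6 erythroid markers, 5 were lower in every Pkm cKO library and 3 of them were called, with sums of 268 to 355 CPM in Pkm cKO libraries and 574 to 804 CPM in controls. The 3 odontoblast markers were below 0 and the 4 endothelial markers above 0, with overlapping groups. Among controls, replicate 3, with the highest ribosomal protein sums, had the lowest enamel sum. Among Pkm cKO libraries, replicate 3 had both the lowest enamel sum and the lowest ribosomal protein sums. Over both subunits, the ribosomal protein sums were 74246 to 77885 CPM in Pkm cKO libraries and 57789 to 78144 CPM in controls. All 5 cycling-cell markers were above 0, with sums of 467 to 956 CPM in Pkm cKO libraries and 346 to 508 CPM in controls. Of 8 macrophage and immune markers, 7 were above 0, with sums of 108 to 184 CPM in Pkm cKO libraries and 65.3 to 70.4 CPM in controls. The 5 skeletal muscle markers summed to 59.9, 12.5 and 2587 CPM in Pkm cKO libraries, against 0.80 to 1.77 CPM in controls. No marker in these lists was at 0 in every library, and the part of these shifts in the ribosomal protein levels was not tested. With 7 enamel, dentin and collagen matrix genes removed before scaling, a setting chosen after seeing the data, the median log2 fold change of the subunit genes was 0.20.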

How the data were processed

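RNA from 3 Pkm cKO and 3 control samples was sequenced. The authors deposited whole-number read counts per gene, with fastp, HISAT2 and the build mm39 named in the submitters' processing notes. Which program counted reads, with what strand setting and annotation, and every version, is not given in the sources used here. Overlapping or antisense genes and close copies may therefore share reads. All 6 columns were used.

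Groups came from the labels. Genes were kept by filterByExpr (15930), libraries scaled by TMM, and groups compared by the quasi-likelihood test with robust estimation (edgeR 4.0.16, R 4.3.3), two-sided, with Benjamini-Hochberg adjustment over all tested genes and a threshold of 0.05. CPM use scaled library sizes, and each SE was taken as the log2 fold change over the square root of its F statistic. The biological coefficient of variation was 0.300. No libraries were duplicates (chi-square per gene at least 26.5). Paralog ratios had 0.5 read added and were compared with exact permutation tests.

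Members and lists were chosen with earlier results of these data known. The rule for named genes took, in each subunit, the 6 lowest p, the 4 highest mean CPM and fold changes below 0, plus paralogs with parents, genes of known role and up to 4 genes of each other list. Lengths, shared windows and start sites came from GENCODE M21 and RefSeq on GRCm38, another build than the counts, matched by gene number or symbol. For length, 1 transcript a member was taken (APPRIS principal, then CCDS, then the shortest). For all tested genes the last step took the longest coding sequence, and the stop codon was not counted, as it was for members. Alternatives were other scalings, filters and tests (DESeq2 1.42.0, limma-voom 3.58.1), each library left out, a replicate block and removal of gene sets before scaling. The procedures were tested on simulated counts. Some genes were kept in all fits, counts and sums and are not reported singly here.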

Additional observations from a re-analysis of the deposited data

How the results depend on the processing

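Members called stayed at 0 under every alternative run, and the median of the subunit genes stayed above 0. Leaving out 1 library gave medians of 0.09 to 0.32 for the large subunit and 0.10 to 0.33 for the small subunit, 62 to 79 members above 0 and 10 to 69 with higher, non-overlapping groups (17 without Pkm cKO replicate 2, 22 without Pkm cKO replicate 3 and 69 without control replicate 3, or 21.5%, 27.8% and 87.3%, against 17.3%, 18% and 18.3% of all genes). With no scaling factor 22 did not overlap (27.8%, against 14.0% of all genes). With 3 libraries a group and this spread between controls, changes of the size seen here lie near the SE of a single gene. Same-numbered libraries correlated at 0.23, 0.015 and 0.22 in their deviations over all genes, and at 0.41, -0.08 and 0.57 over the members (-0.63 to 0.28 for unlike numbers). No label says that a number pairs libraries, so the numbers were not taken as pairs. Whether same-numbered libraries shared an effect was not tested. The replicate block gave 359 genes higher and 349 lower, no member called and 1 TOP message called.

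Over all genes, 55 were called higher and 33 lower in the main analysis. Lower counts were 16 with DESeq2 size factors, 18 with upper-quartile scaling, 14 with no scaling factor, and 15 with members removed before scaling (36 higher; added after seeing the data). No filter gave 301 higher and 217 lower, DESeq2 688 and 430, limma-voom 0 and 2 (2741 genes with an unadjusted p under 0.05), and edgeR without robust estimation 0 and 2 (2840 genes). Leaving out 1 library gave 0 to 317 higher and 0 to 323 lower, where edgeR called 0 without control replicate 1, 2 or 3 (1532, 1766 and 2495 genes had an unadjusted p under 0.05). One TOP message, Snhg8, was called with no filter and with DESeq2, as was 1 mitochondrial ribosomal protein, Mrps33, with DESeq2, and leaving out 1 library gave 0 to 1 calls among Myc and mTORC1 regulators (Eif4ebp1, without Pkm cKO replicate 1).

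The RNA polymerase I median was 0.066 with upper-quartile scaling, 0.096 with no scaling factor, -0.00019 with the replicate block and -0.046 to 0.050 with 1 library left out. The Myc and mTORC1 median was 0.098 and 0.11 with those scalings and -0.032 to 0.092 with 1 library left out. The mitochondrial median ranged from -0.063 to 0.048 with 1 library left out.

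Genes near 0 changed sign. With upper-quartile scaling Rpl35 was 0.024 and Rpl41 0.0023, and with no scaling factor Rpl35 was 0.046, Rpl41 0.023 and Rpl38 0.011. With 1 library left out, the log2 fold change ranged from -0.13 to 0.12 for Rpl35, -0.12 to 0.057 for Rpl38, -0.13 to 0.12 for Rpl41, -0.096 to 0.14 for Rpl39, -0.016 to 0.20 for Rps25, -0.050 to 0.25 for Rps27, -0.0080 to 0.29 for Rpl11, -0.065 to 0.19 for Rpl22l1, -0.18 to 0.066 for Rpl7l1 and -0.46 to 0.70 for Rpl39l. The log2 ratio difference ranged from -0.38 to 0.69 for Rpl39l to Rpl39 and from -0.11 to 0.057 for Rpl6l to Rpl6. The cause of these changes was not tested.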
